A study of Mus musculus with 6 samples.

Results

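The 10 genes described here encode the 5 NF-κB subunits (*Nfkb1*, *Nfkb2*, *Rel*, *Rela* and *Relb*), 3 cytoplasmic inhibitors of the IκB family (*Nfkbia*, *Nfkbib* and *Nfkbie*) and 2 nuclear IκB proteins (*Nfkbiz* and *Bcl3*). They were taken by gene symbol from a table of 14379 genes, and all 10 were among the 10173 genes with enough signal to be tested. The activated group held 3 RNA-seq libraries of CD4+ T cells stimulated for 2 days with plate-coated anti-CD3e and soluble anti-CD28, which stand in for antigen and costimulation, without cytokines that steer a helper lineage. The naive group held 3 libraries of resting CD4+ T cells collected at day 0. In both groups the cells were sorted from lymph nodes and spleen of wild-type (WT) C57BL/6 mice, with no engineered allele. No library of cells cultured without stimulation was analysed here, so the stimulus and the culture itself cannot be told apart.

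NF-κB factors are dimers of 5 related proteins that share the Rel homology domain, through which they pair and bind DNA. In resting cells the IκB proteins hold most dimers in the cytoplasm. Signals from the T cell receptor and CD28 reach the IκB kinase (IKK) through protein kinase C theta and adaptor proteins. IKK then marks IκB for destruction and frees dimers of RELA or c-REL with the product of *Nfkb1*. A slower, noncanonical route runs from TNF family receptors through NIK, and processes the *Nfkb2* product so that it can act with RELB. These steps act on proteins, and the libraries measured only RNA.

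Values are log2 levels headed FPKM, a measure per transcript length, and genes without signal share a base value of 1.99. Where levels of different genes were added or ranked, the linear value above that base was used, with values under the base set to 0. A gene was called changed in limma (all 10173 genes fitted together) where the Benjamini-Hochberg adjusted p was under 0.05 and the change at least 1.5-fold. The mRNA is expressed relative to the rest of each library, and in bulk samples fewer cells of a type and less RNA per cell cannot be told apart.

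The libraries were of unequal likeness within their groups. Activated libraries 2 and 3 held identical values above or below the base for 670 genes and naive libraries 1 and 2 for 352, whereas the other pairs of a group shared none. The SD of the log2 difference over genes was 0.11 for activated 2 against 3, and 0.16 for naive 1 against 2. It was 0.28 to 0.29 for activated library 1 against the others, and 0.35 to 0.38 for naive library 3. Whether the like libraries are technical repeats was not tested. If they were, each group would hold 2 independent samples, the SDs given for n = 3 could be too small, and an exact permutation test could not go below 0.333. With the like libraries averaged, the same 5 members were called higher and none lower. That fit was not a stricter test, since its adjusted p-values for these 5 were smaller than with 6 libraries. For *Nfkb2* the limma adjusted p was 2.8e-17, against 2.5e-06 with 6 libraries. It therefore cannot show that the calls would stand if the like libraries were repeats. T cell markers were present in every library, with a summed level of 1780 to 2037 in activated and 5315 to 5964 in naive libraries, and 7 of 8 were called lower after activation, none higher. Myeloid and dendritic cell markers summed to 26.3 to 37.9 in activated and 65.0 to 146 in naive libraries (3 of 6 tested called lower, none higher), and *Cd14*, *Adgre1*, *Flt3* and *Clec9a* lay near the base in all 6 libraries. Regulatory T cell markers summed to 322 to 520 in activated and 194 to 208 in naive libraries (1 called higher, 5 lower), and CD8 T and NK cell markers to 186 to 265 in activated and 146 to 189 in naive libraries (1 called higher, 4 lower). Single genes made up most of these sums in activated libraries, namely *Tnfrsf18* at 261 to 364 and *Nkg7* at 175 to 253. *Foxp3* was at 1.07 to 3.15 in activated and 22.7 to 36.6 in naive libraries, and *Cd8b1* at 6.22 to 10.5 and 48.2 to 70.2. These 4 genes were named after their values were seen. B cell markers summed to 11.3, 19.0 and 17.5 in activated libraries, against 8.31, 37.9 and 15.4 in naive libraries, with *Ebf1* and *Cr2* near the base throughout and none of 6 tested called (1 lower at an unadjusted p under 0.05). The part these markers play in the members' values was not tested.

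Several NF-κB genes are known as targets of NF-κB itself, so the sequence upstream of the members was read for the κB consensus, the DNA element that NF-κB dimers bind. RefSeq promoter windows on GRCm38.p6, running from 250 bases before to 50 bases after a start site, were searched on both strands. There were 9 windows for 7 of the members, and *Nfkb1*, *Relb* and *Nfkbiz* had no entry. A match was found for 5 of the 7, while *Rela* and *Nfkbib* had none in their windows. Of all 27025 genes with a window, 9.55% held a match. The matches are shown because they let *Nfkb2*, the member with the largest change, be set beside the others. Capitals mark the matching bases, which run to 11 where a pair of matches overlap, and each sequence reads 5′ to 3′ on the strand of its gene.
*Nfkb2*, chr19:46304689-46304718, plus strand: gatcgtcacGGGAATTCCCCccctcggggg
*Nfkb2*, chr19:46304716-46304745, plus strand: ggggccgaaaGGGGCTTTCCcggctggagc
*Nfkb2*, chr19:46305449-46305478, plus strand: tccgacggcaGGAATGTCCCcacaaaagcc
*Nfkb2*, chr19:46305695-46305724, plus strand: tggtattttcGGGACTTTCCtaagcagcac
*Rel*, chr11:23771041-23771070, minus strand: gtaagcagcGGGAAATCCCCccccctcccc
*Nfkbia*, chr12:55492657-55492686, minus strand: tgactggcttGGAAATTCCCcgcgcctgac
*Nfkbie*, chr17:45555584-45555613, plus strand: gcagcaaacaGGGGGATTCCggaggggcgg
*Bcl3*, chr7:19822734-19822763, minus strand: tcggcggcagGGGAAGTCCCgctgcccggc
The windows of *Nfkb2* held matches at 4 places over several start sites, the first at -39 to -29 and the second at -11 to -2 from the first start. With several start sites, more sequence was searched for *Nfkb2* than for each of the other members. The other genes held 1 place each, at -92 to -82 for *Rel*, -29 to -20 for *Nfkbia*, -106 to -97 for *Nfkbie* and +2 to +11 for *Bcl3*. Members with a match were found both among the genes called higher (*Nfkb2*, *Rel*) and among those not called (*Nfkbia*, *Nfkbie*, *Bcl3*), and *Nfkbib* was called higher without one. Over the 8321 tested genes that have a window, a match was held by 11.5% of those called higher, 13.7% of those called lower and 11.8% of those not called. A match is a description of the letters and says nothing of binding in these cells.

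After 2 days of activation, 5 of the 10 genes were higher and none was lower. Of the 5 subunits 4 rose, namely *Nfkb2*, *Rel*, *Nfkb1* and *Relb*, together with the inhibitor *Nfkbib*, by 2.37- to 8.99-fold, whereas *Rela*, *Nfkbia*, *Nfkbie*, *Nfkbiz* and *Bcl3* were not called. At an unadjusted p under 0.05, 7 members were higher and none lower. Most genes tested also passed that level, with 4323 higher and 3300 lower of 10173. Of all genes tested, 31.2% were called higher and 21.6% lower, which makes 52.8% called in either direction. The count of 5 in 10 called is thus close to the share over all genes, and the absence of lower calls rests on few genes. The activated and naive libraries did not overlap for 7 members, all higher in activated cells, a pattern that 76.8% of all genes tested showed in 1 direction or the other. The median log2 fold change of the members was 0.87, against 0.13 for all genes tested.

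**Figure D1:**
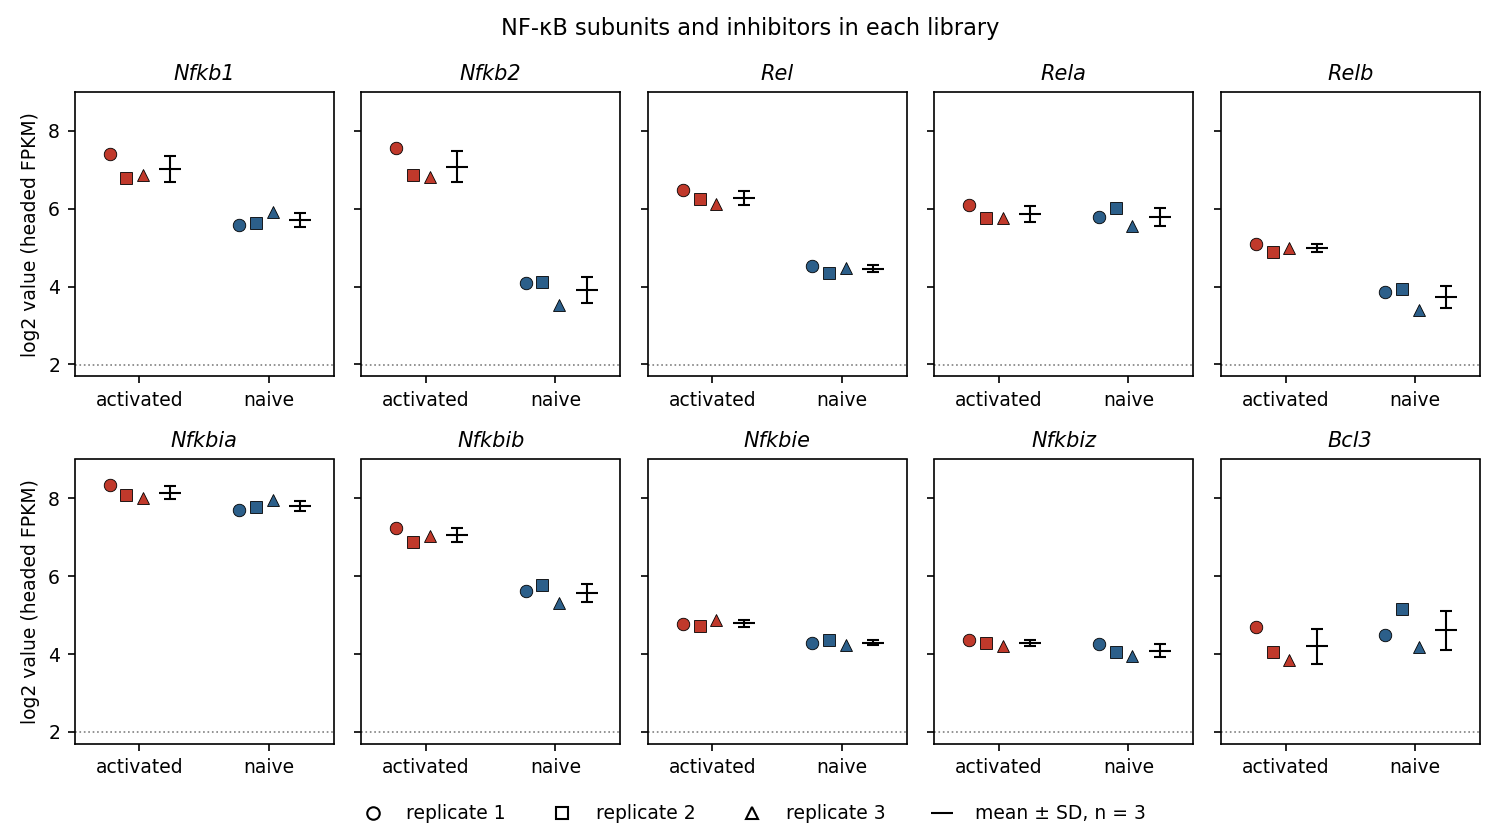
Deposited log2 value of each of the 10 genes (vertical axis) in the 3 activated libraries, drawn to the left, and the 3 naive libraries, drawn to the right. Symbols are single libraries, with a shape for each replicate number, bars are the mean ± SD (n = 3) and the dotted line is the base value of 1.99. *Nfkb2* has the widest gap, with means of 7.08 in activated and 3.91 in naive cells, while the points of *Rela*, *Nfkbiz* and *Bcl3* overlap.

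*Nfkb2* (chr19:46304320-46312385, plus strand, GRCm38) encodes the precursor that the noncanonical route processes into a DNA-binding subunit, and which in its unprocessed form acts as an inhibitor. Its log2 levels were 7.55, 6.88 and 6.82 in activated libraries 1 to 3, against 4.10, 4.12 and 3.52 in naive libraries 1 to 3. Every activated library stood at least 2 log2 units above every naive one. The log2 fold change was 3.17 (SE 0.23, 95% interval 2.65 to 3.69), or 8.99-fold, with a limma adjusted p of 2.5e-06. It ranked 104 of the 10173 genes by log2 fold change. Above the base, the linear level averaged 135 ± 41.6 in activated and 11.4 ± 3.32 in naive cells (SD, n = 3 each). On the opposite strand, exons of *AC114539.1* (not analysed here) overlap those of *Nfkb2* by 531 bases and exons of *Psd* by 299 bases, and no source used here says whether reads were counted by strand. *Psd* had a linear level of 7.68 ± 0.253 above the base in activated libraries and was listed at 0 above it in all naive libraries, so that gene moved with *Nfkb2* at a far lower level.

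*Rel* (chr11:23736847-23770970, minus strand) encodes c-REL, a subunit with a transactivation domain that is mainly found in lymphoid cells. *Rel* had log2 levels of 6.48, 6.24 and 6.12 in activated libraries, against 4.53, 4.36 and 4.48 in naive libraries. The groups were far apart, and the libraries of each group lay close together. *Rel* rose by 1.82 on the log2 scale (SE 0.14, 95% interval 1.51 to 2.13), or 3.54-fold, with a limma adjusted p of 3.1e-06.

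*Nfkb1* (chr3:135584655-135691547, minus strand) encodes the precursor of the subunit that pairs with RELA and c-REL in the canonical route. In log2 units it stood at 7.41, 6.78 and 6.87 in activated libraries, against 5.58, 5.64 and 5.90 in naive libraries. Activated library 1 stood above the other activated libraries, here as for *Nfkb2*. The rise was 1.31 on the log2 scale (SE 0.18, 95% interval 0.89 to 1.72), or 2.48-fold, with a limma adjusted p of 0.00016.

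*Relb* (chr7:19606217-19629438, minus strand) encodes the partner of the processed *Nfkb2* product. *Relb* had log2 levels of 5.08, 4.88 and 4.99 in activated libraries, against 3.85, 3.95 and 3.40 in naive libraries. The groups did not overlap, and *Relb* remained the subunit with the lowest level in activated cells. The rise was 1.25 on the log2 scale (SE 0.16, 95% interval 0.88 to 1.61), or 2.37-fold, with a limma adjusted p of 9.4e-05.

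*Rela* (chr19:5637483-5648130, plus strand) encodes the main transactivating subunit of the canonical route, and stood apart from the other subunits. Levels of *Rela* were, in log2 units, 6.11, 5.75 and 5.76 in activated libraries, against 5.80, 6.01 and 5.55 in naive libraries. The groups overlapped, with a naive library second highest of the 6. The log2 fold change was 0.09 (SE 0.16, limma adjusted p 0.64), and its 95% interval ran from -0.28 to 0.45, an upper bound under the fitted change of each of the other subunits.

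The subunits thus changed by unequal amounts within the same libraries. *Nfkb2* exceeded *Nfkb1* by 0.14 and 0.09 log2 units in activated libraries 1 and 2 and differed from it by -0.04 in activated library 3, against -1.49, -1.52 and -2.38 in the naive libraries. The 2 transcripts were therefore at like levels in activated cells, while *Nfkb2* was well under *Nfkb1* in naive cells. The difference between activated and naive cells was 1.86 log2 units for *Nfkb2* minus *Nfkb1*, 1.74 for *Rel* minus *Rela* and 1.16 for *Relb* minus *Rela*. In each of these pairs the 3 activated libraries lay above the 3 naive ones. Each gave an exact two-sided permutation p of 0.1 (0.1 after adjustment over 4 pairs), the smallest that 3 against 3 libraries can give.

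**Figure D2:**
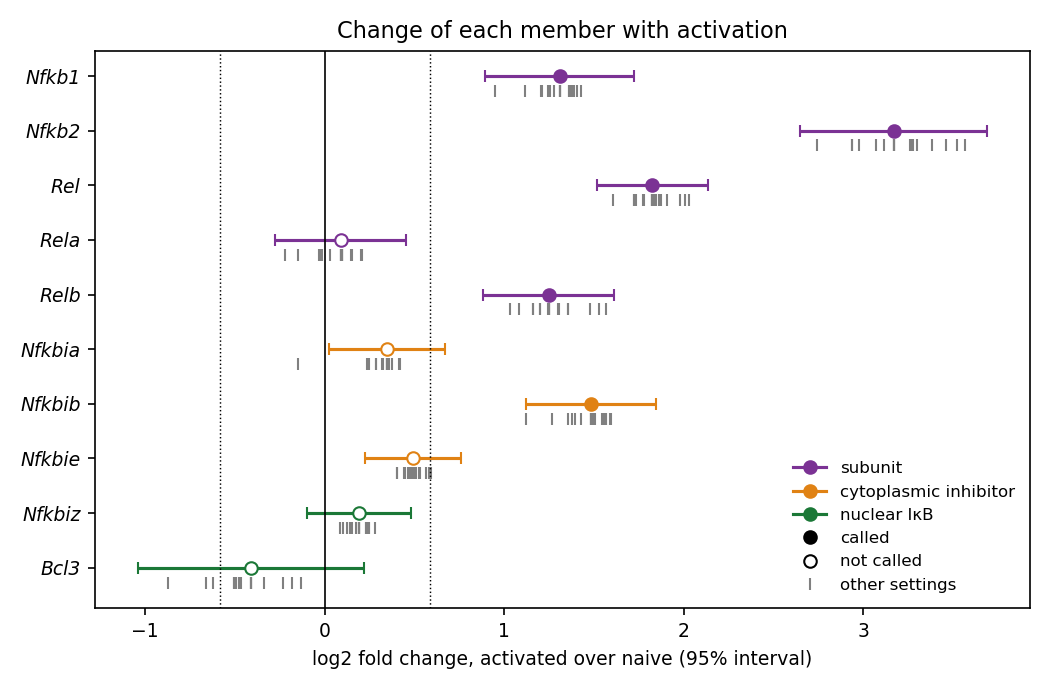
Log2 fold change, activated minus naive, of the 10 genes ordered by role, with 95% intervals from limma as horizontal lines, filled points for called genes, grey ticks for the values under the other settings tried, and dotted lines at 1.5-fold in either direction. *Nfkb2* has the highest value at 3.17, and the intervals of *Rela*, *Nfkbiz* and *Bcl3* cross 0.

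The make-up of the subunit RNA differed between the groups. The 5 subunits summed to linear levels of 530, 367 and 365 above the base in activated libraries, against 138, 148 and 131 in naive libraries, a 3.02-fold higher mean. Within that sum, *Nfkb2* made up 34.6%, 30.9% and 29.9% in activated libraries, against 9.48%, 9.09% and 5.74% in naive libraries. The share of *Rela* moved the other way, at 12.2%, 13.6% and 13.8% in activated libraries, against 37.4%, 40.9% and 32.6% in naive libraries. The level of *Rela* itself did not fall, with means of 55.0 in activated and 51.6 in naive cells. Shares of a sum are not independent of each other. The mean share of *Nfkb2* was 23.7 percentage points higher in activated cells, and that of *Rela* fell by 23.7. *Rel* made up 17.9% ± 1.69 in activated and 13.0% ± 1.55 in naive cells (SD, n = 3 each), with no overlap between the groups. *Nfkb1* made up 30.4% ± 1.24 in activated and 35.2% ± 6.49 in naive cells, where naive library 3 stood alone at 42.7%, against 31.7% and 31.1% in the others. Its difference was -4.80 percentage points with all libraries and -1.05 without naive library 3. *Relb* made up 6.72% ± 0.983 in activated and 6.79% ± 1.51 in naive cells, and for both genes the groups overlapped. The exact two-sided permutation p was 0.1 for *Nfkb2*, *Rel* and *Rela* (0.167 after adjustment over 5 shares), 0.2 for *Nfkb1* (adjusted 0.25) and 0.9 for *Relb* (adjusted 0.9).

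*Nfkbib* (chr7:28758251-28767512, minus strand) encodes IκB beta and was the sole cytoplasmic inhibitor of the 3 that was called. Its log2 levels were 7.24, 6.89 and 7.04 in activated libraries, against 5.62, 5.79 and 5.32 in naive libraries. The lowest activated library was more than 1 log2 unit above the highest naive one. *Nfkbib* rose by 1.48 on the log2 scale (SE 0.16, 95% interval 1.12 to 1.84), or 2.80-fold, with a limma adjusted p of 2.9e-05. On the opposite strand, its exons overlap those of *Ccer2* by 314 bases and those of *Sirt2* by 42 bases. *Ccer2* reached at most 0.162 above the base in any library, and *Sirt2* was not called, at a log2 fold change of 0.17 (SE 0.13, limma adjusted p 0.25).

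*Nfkbia* (chr12:55489410-55492647, minus strand) encodes IκB alpha, the inhibitor that is destroyed and made again most quickly in canonical signalling, and had the highest level of the 10 genes in both groups. Its log2 levels were 8.35, 8.09 and 8.01 in activated libraries, against 7.69, 7.77 and 7.96 in naive libraries. The groups did not overlap, but activated library 3 lay only just above naive library 3. At a log2 fold change of 0.34 (SE 0.14, 95% interval 0.02 to 0.67) and a limma adjusted p of 0.054, the gene was not called. Its direction turned under quantile normalization, to -0.15, which moved the median log2 fold change of all genes tested by -0.12.

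*Nfkbie* (chr17:45555703-45563169, plus strand) encodes IκB epsilon, an inhibitor found mainly with c-REL and RELA dimers. *Nfkbie* had log2 levels of 4.76, 4.72 and 4.88 in activated libraries, against 4.28, 4.37 and 4.24 in naive libraries. The groups did not overlap and varied little within themselves. The log2 fold change of 0.49 (SE 0.12, 95% interval 0.23 to 0.76) had a limma adjusted p of 0.0042 but came to 1.41-fold, which missed the fold threshold. With a pseudocount of 0.1 on the value above the base, the log2 fold change was 0.59 and the gene was called.

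The 3 inhibitors summed to linear levels of 493, 406 and 407 above the base in activated libraries, against 264, 283 and 295 in naive libraries, a 1.55-fold higher mean. This was a smaller step than that of the subunit sum, so the inhibitor RNA per subunit RNA was 0.932, 1.11 and 1.11 in activated libraries, against 1.91, 1.91 and 2.25 in naive libraries. The groups did not overlap. The log2 of that ratio fell by 0.94, with an exact two-sided permutation p of 0.1, the smallest possible. The ratio counts *Nfkb1* and *Nfkb2*, which encode precursors, only as subunits, although unprocessed *Nfkb2* product acts as an inhibitor. These 2 genes made up a mean of 62.2% of the subunit sum in activated and 43.3% in naive cells. The fall thus holds for the 3 named inhibitors, and a ratio with the precursors among the inhibitors was not tested. *Nfkbia* made up 65.5%, 66.2% and 62.3% of the inhibitor sum in activated libraries, against 77.0%, 76.0% and 82.8% in naive libraries. The excess of *Nfkbia* over *Nfkbib* was 1.11, 1.20 and 0.97 log2 units in activated libraries, against 2.07, 1.98 and 2.64 in naive libraries. That excess fell by 1.14 (exact two-sided permutation p 0.1, and 0.1 after adjustment over the 4 pairs).

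**Figure D3:**
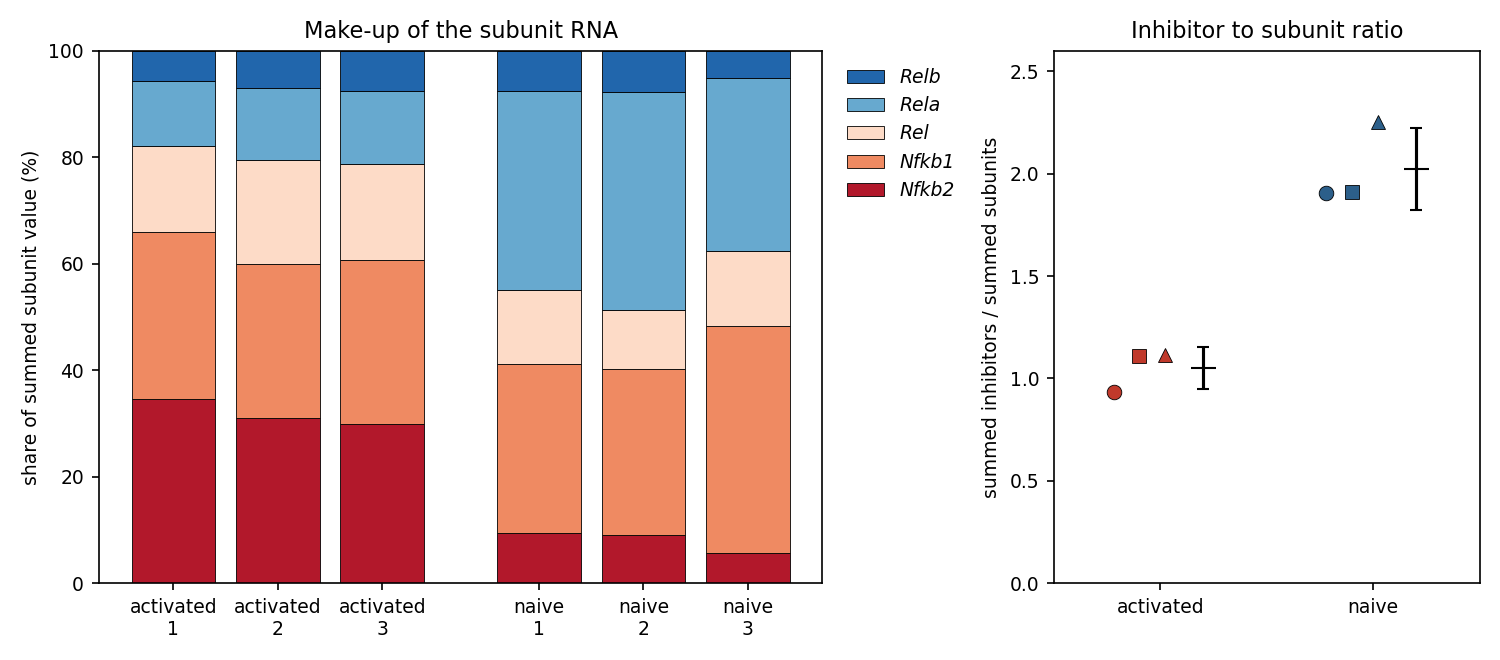
Left, share of each subunit in the summed linear level above the base of the 5 subunits, in percent, with 1 stacked bar for each activated library and then for each naive library. Right, summed level of the 3 cytoplasmic inhibitors divided by that of the 5 subunits, with symbols for libraries and bars for the mean ± SD (n = 3). *Nfkb2* takes 29.9% to 34.6% of the bar in activated and 5.74% to 9.48% in naive libraries, and the ratio is 0.932 to 1.11 in activated and 1.91 to 2.25 in naive libraries.

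Neither nuclear IκB gene was called, and at an unadjusted p under 0.05 neither was higher or lower. *Nfkbiz* (chr16:55811375-55838899, minus strand) encodes IκB zeta, a cofactor of secondary response genes. *Nfkbiz* had log2 levels of 4.36, 4.28 and 4.20 in activated libraries, against 4.27, 4.05 and 3.95 in naive libraries. The groups overlapped, and the log2 fold change was 0.19 (SE 0.13, 95% interval -0.10 to 0.48, limma adjusted p 0.21). *Bcl3* (chr7:19808462-19822770, minus strand) encodes a cofactor that binds homodimers of the processed *Nfkb1* and *Nfkb2* products. Its log2 levels were 4.70, 4.06 and 3.85 in activated libraries, against 4.48, 5.17 and 4.19 in naive libraries. It had the widest spread of the 10 genes in both groups, and the groups overlapped. The log2 fold change was -0.41 (SE 0.28, 95% interval -1.04 to 0.22, limma adjusted p 0.21). Naive library 2 had the highest *Bcl3* level and also the highest summed level of B cell markers, 37.9 against 8.31 and 15.4 in the other naive libraries, and the part of those markers was not tested. Its size rested on single libraries: without naive library 2 the log2 fold change was -0.13 (limma adjusted p 0.65), without activated library 3 it was -0.23 (adjusted p 0.49), and with like libraries averaged -0.18 (adjusted p 0.56). With naive library 3 and activated library 1 both left out, *Bcl3* was called lower, at -0.87 (limma adjusted p 0.0037). Only the like libraries of each group remain in that setting, and if they are technical repeats that p is too small.

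In order of linear level above the base, activated cells had *Nfkbia* first at 282 ± 36.4 (SD, n = 3), then *Nfkb2* at 135 ± 41.6, *Nfkbib* at 130.0 ± 16.2 and *Nfkb1* at 128 ± 32.8, whose ranges overlapped. *Rel* followed at 74.2 ± 10.3, *Rela* at 55.0 ± 8.52, *Relb* at 27.7 ± 2.26 and *Nfkbie* at 23.7 ± 1.62, where *Relb* and *Nfkbie* overlapped. *Nfkbiz* at 15.5 ± 1.04 and *Bcl3* at 15.03 ± 6.17 came last and overlapped. In naive cells *Nfkbia* was again first, at 221 ± 21.4. *Rela* at 51.6 ± 8.82, *Nfkb1* at 48.6 ± 6.42 and *Nfkbib* at 44.1 ± 7.77 came next and each overlapped its neighbour. The other 6 genes lay between 9.52 ± 2.56 for *Relb* and 21.5 ± 9.26 for *Bcl3*, and each overlapped the next in order. *Nfkb2* was ninth of the 10 in naive cells and second in activated cells.

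The genes around the members were taken from 5 lists of 122 genes in all, written from general knowledge with earlier results of these data known. Their counts stand beside shares over all genes tested of 31.2% called higher, 21.6% lower and 52.8% in either direction. In the list of the relay from the T cell receptor to IKK, 24 of 25 genes were tested, of which 6 were higher, 8 lower and 10 not called (median log2 fold change 0.00). *Prkcq*, which encodes protein kinase C theta, fell by 1.76 on the log2 scale (SE 0.16). *Casp8* fell by 1.55 and *Tab2*, an adaptor of the kinase TAK1, fell by 1.37. On the other side, *Fbxw11*, a ubiquitin ligase component that recognizes phosphorylated IκB, rose by 0.94, and the kinase gene *Map4k1* rose by 0.89. The IKK subunits, named after their values were seen, did not move together. *Chuk* (IKK alpha) rose by 0.77, *Ikbkb* (IKK beta) fell by 1.10, and *Ikbkg* (NEMO) had a log2 fold change of -0.32, which was too small to be called.

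In the noncanonical list, 11 of 14 genes were tested, with 5 higher, 3 lower and 3 not called (median -0.10). The largest rises were those of receptor genes. Among them was *Tnfrsf4* (OX40), at a log2 level of 10.19 ± 0.38 in activated and 6.21 ± 0.41 in naive cells (SD, n = 3 each). *Tnfrsf9* (4-1BB) rose by 1.85 and *Tnfrsf13c*, the BAFF receptor gene, by 1.68. *Tnfrsf13c* lay near the base in naive libraries, at 2.19, 2.75 and 2.61, so the size of its rise depends on the base value. *Cd27*, also a TNF family receptor, fell by 1.98. Within the cytoplasmic part of the route, *Map3k14*, which encodes NIK, fell by 0.60 (SE 0.16), and *Birc2*, a ubiquitin ligase that keeps NIK low, fell by 0.66. *Traf2* and *Traf3*, of the same part and named after their values were seen, differed. *Traf2* was called higher, at 0.68 (SE 0.16), and *Traf3* was not called, at -0.33 (SE 0.13). *Birc3*, a ubiquitin ligase gene of the same route named after its values were seen, had log2 levels of 5.44, 5.04 and 4.97 in activated libraries, against 5.16, 5.14 and 5.47 in naive libraries, which overlapped. The rise of *Nfkb2* and *Relb* thus stood beside calls in both directions within that list.

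Of the 19 genes tested in the list of other brakes on the pathway, 6 were higher, 4 lower and 9 not called (median 0.23). *Tnip2*, whose product binds the ubiquitin editor A20, rose by 1.02, the RNase gene *Zc3h12a* by 1.00, and the deubiquitinase genes *Otulin* and *Otud7b* by 0.88 and 0.83. *Usp18* fell by 1.94 and *Tax1bp1*, another partner of A20, fell by 1.23. *Tnfaip3*, the gene of A20 itself, was named after its values were seen and had a log2 fold change of 0.23 (SE 0.18, limma adjusted p 0.29). Among 20 other IκB-like genes and modifiers of nuclear NF-κB, 7 were higher, 6 lower and 7 not called (median -0.05). *Nfkbid*, another nuclear IκB gene, had log2 levels of 6.78, 6.50 and 6.48 in activated libraries, against 4.59, 4.70 and 3.93 in naive libraries, and rose by 2.18 (SE 0.21). It was thus called where *Nfkbiz* and *Bcl3* were not. *Tbkbp1* was called higher, at 5.82, 4.75 and 4.86 in activated libraries, against values under the base in all naive libraries. The coactivator gene *Crebbp* fell by 1.46, *Azi2* by 1.11 and the kinase gene *Ikbke* by 0.99.

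Of 42 known or proposed target genes tested, 27 were higher, 8 lower and 7 not called, with a median log2 fold change of 1.42. Over all genes tested, 31.2% were higher and 21.6% lower, with a median of 0.13. The cytokine genes *Il2* and *Csf2* and the chemokine genes *Ccl3* and *Ccl4* had the largest rises. *Il2* rose by 8.41 and *Ccl3* by 6.59 on the log2 scale, while *Ccl4* and *Csf2* lay so near the base in naive libraries that no fold is given. *Vim* fell by 3.64 and *B2m*, the light chain of MHC class I, fell by 2.61. The targets therefore included genes that moved against each other, and the list rests on general knowledge of many cell types. *Bcl2l1*, a survival gene, and *Lta*, a cytokine gene, were named after their values were seen and rose by 3.67 and 3.43. The κB consensus was matched in the promoter windows of 11 of 34 target genes, 7 of 15 brakes, 4 of 15 IκB-like genes and modifiers, 3 of 13 noncanonical genes and 3 of 18 relay genes. These counts were not limited to tested genes. Over all 27025 genes that have a window the share was 9.55%, and over the 8321 of them that were tested it was 12.1%. The lists were written from knowledge of this pathway, and the differences from these shares were not tested.

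**Figure D4:**
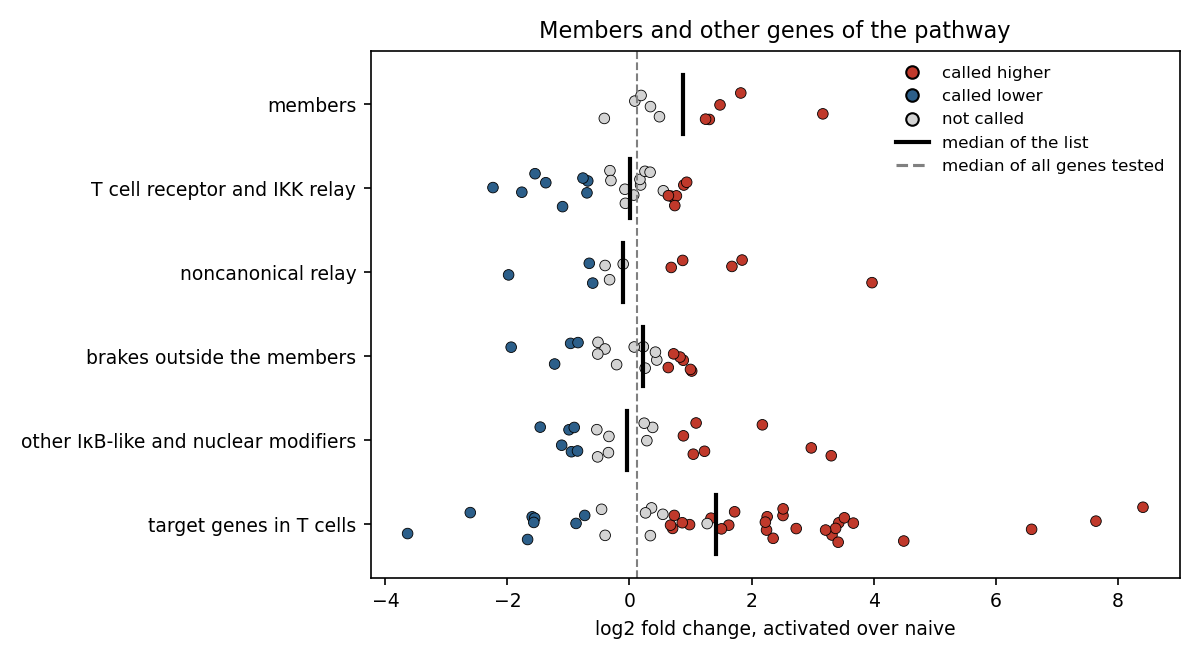
Log2 fold change, activated minus naive, of the 10 members and the tested genes of the 5 lists (1 point each), coloured by call, with a solid line at each median and a dashed line at 0.13, the median of all genes tested. The target genes have a median of 1.42, the members 0.87, and the other lists have medians between -0.10 and 0.23.

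The genes whose pattern over the 6 libraries lay nearest to that of *Nfkb2*, by Euclidean distance of log2 values centred on each gene's mean, were *Lgals7* (0.19), *Phgdh* (0.29) and *Pim3* (0.30). *Pim3* had log2 levels of 7.14, 6.68 and 6.67 in activated libraries, against 3.80, 4.07 and 3.17 in naive libraries. All 3 were called higher. *Lgals7* lay under the base in all naive libraries, at 1.91, 1.94 and 1.29, so its pattern there does not rest on signal. Nearest to *Bcl3* were *Abcb9* (0.47), *Fbxo17* (0.48) and *Wbp2* (0.49), none of which was called. *Wbp2* had log2 levels of 5.47, 5.11 and 5.08 in activated libraries, against 5.64, 5.89 and 5.34 in naive libraries, with the same highest library in each group as *Bcl3*.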

How the data were processed

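Poly(A)+ RNA-seq libraries of activated and naive CD4+ T cells (n = 3 each, described in the study's figure legends as biologically independent) were grouped by the submitters' labels. The authors deposited a table of log2 values, with FPKM in its headers and ComBat, a batch correction, in its name. Its values ran from 1.17 to 15.01. Per the methods and the submitters' processing notes, the upstream steps were alignment to mm10 (HISAT2 2.0.5), assembly (StringTie 1.3.3b) and read counting (featureCounts 1.5.0-p3). The pseudocount, batches and strand setting were not found in any source read here. Counts were not part of the table, which leaves depth and counting error unknown, and limma took the place of the count test of the study. Removing a batch can shrink the differences among replicates, on which all p-values rest.

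A gene entered the fit if it exceeded the base value (3.97 on the linear scale) by 1 unit or more in 3 or more of the 6 libraries. The fit used limma 3.58.1 under R 4.3.3 with a mean-variance trend and no covariate, and was tested on simulated data. Shares, ratios and pair differences were tested by exact two-sided permutation over libraries in Python 3.11.15 with scipy 1.17.1. The members and lists were chosen with earlier results of these data known. Named genes are the members and, in each list, up to 4 most changed of the called genes without overlap between groups. Up to 2 called genes that moved the other way were added, with no condition on overlap. The 3 nearest patterns to the members with the highest and lowest fold change were also named. Gene positions and exon overlaps came from GENCODE on GRCm38. Alternatives covered filters, pseudocounts, scaling, the trend, a replicate block, fold thresholds and left-out libraries. *Skp1a* and *Trac* were not analysed here. Some genes named by the rule are not reported here.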

Additional observations from a re-analysis of the deposited data

How the results depend on the processing

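The 5 members called higher remained called under every alternative tried, with log2 fold changes of 0.95 to 1.43 for *Nfkb1*, 2.74 to 3.57 for *Nfkb2*, 1.61 to 2.03 for *Rel*, 1.03 to 1.57 for *Relb* and 1.12 to 1.59 for *Nfkbib*. The count was 6 with a pseudocount of 0.1 or with no fold threshold, where *Nfkbie* joined them. With naive library 3 and activated library 1 both left out, which leaves only the like libraries of each group, 1 member was lower (*Bcl3*). The direction of *Rela* was not settled: its log2 fold change was -0.22 under quantile normalization, -0.015 under median-of-ratios scaling, -0.031 to 0.20 with 1 library left out and -0.15 without naive library 3 and activated library 1. *Nfkbia* was at -0.15 under quantile normalization. The difference in the share of *Relb* was 1.03 percentage points under quantile normalization, 0.10 with like libraries averaged, and -0.94 to 0.47 with 1 library left out. The cause was not tested.

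A 2-fold threshold left 0 higher and 5 lower relay genes, 3 higher and 1 lower noncanonical genes, 1 higher and 2 lower brakes, and 2 lower IκB-like genes and modifiers, since fewer genes pass a higher fold. With no fold threshold, 5 noncanonical genes and 7 brakes were lower. With a replicate block, 5 members were higher and 0 lower, and no member's call changed. The deviations of same-numbered libraries had correlations of -0.01, -0.05 and -0.14, and those of the other pairings ran from -0.07 to 0.17. Since a batch correction can remove a shared effect, these values cannot settle whether same-numbered libraries are paired. With unknown depth, no limit on low levels can be given.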
